A study of Homo sapiens with 4 samples.

Results

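The genes described here encode the kinase MNK1 (MKNK1), the RNA-binding protein Sam68 (KHDRBS1) with its paralog KHDRBS3, and proteins that bind or regulate the mRNA cap: EIF4E, EIF4E2, EIF4EBP1, EIF4G1, EIF4G3 and EIF4A2. They were chosen by name, 9 genes in all, and each was read from its probe set of highest mean over the 4 samples. Of the 9 genes, 7 had a probe set annotated to that gene alone, among 7745 coding genes measured. All 7 passed the filter on low values, a mean log2 value of at least 7.80 (the median of coding genes), as did 3874 coding genes in total. EIF4G3 was not analysed here. The probe set that carries EIF4A2 is annotated jointly to small nucleolar RNAs and a microRNA inside that gene, so EIF4A2 is given no value.

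Expression arrays were run on LN229, an established human glioblastoma cell line. The 4 groups were untreated total RNA, untreated polysomal RNA, total RNA after 5 µM ATO for 6 h, and polysomal RNA after the same treatment. The labels write only ATO, commonly short for arsenic trioxide. Cells of all 4 groups were grown in the same serum-containing medium and lysed with cycloheximide, which holds ribosomes on mRNA, and polysomal RNA is the RNA recovered with mRNAs that carry several ribosomes. Each group holds 1 sample, in which technical triplicates had been pooled, so the differences that follow carry no replicate error and were not tested. The data come from 1 cell line, and in a bulk sample fewer expressing cells and less RNA per cell cannot be told apart.

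Cap-dependent translation starts when eIF4E binds the 5′ cap of an mRNA and joins the scaffold eIF4G and the helicase eIF4A. 4E-BP1, the product of EIF4EBP1, holds eIF4E away from eIF4G until mTOR phosphorylates it. MNK1, activated by ERK and p38 MAP kinases, docks on eIF4G and phosphorylates eIF4E, and the MNK pathway is known to be engaged when leukaemia and glioma cells are exposed to arsenic trioxide. Sam68 is a STAR-family protein that binds RNA, acts in splicing and is a substrate of SRC-family and MAP kinases. The arrays measured mRNA, not kinase activity, phosphorylation or protein.

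Because mTOR acts through 4E-BP1 and LARP1 most strongly on mRNAs that begin with a C followed by pyrimidines, the bases around the annotated starts of the members are shown. They are the 30 bases from 15 before to 15 after each transcription start in RefSeq (GRCh38.p14), with every run of a C followed by at least 4 further C or T bases in capitals, searched on the transcribed strand and within the window only. The table used held 5 of the measured genes, with 8 starts.
KHDRBS1, chr1:32013853-32013882, plus strand: catttccggtgCTCTCTCTCgctgggtcgc
MKNK1, chr1:46604254-46604283, minus strand: gcccaCCCCCTggatctagcaccgCCTCTT
EIF4E, chr4:98929119-98929148, minus strand: CCTTCTggagcggttgtgcgatcagatcga
EIF4E2 start 1, chr2:232550674-232550703, plus strand: ggtggagcggaagtcaCTCCCTgaggcagt
EIF4E2 start 2, chr2:232551052-232551081, plus strand: tggaggggtggggacctcggcggtttgggt
EIF4G1 start 1, chr3:184314591-184314620, plus strand: tctgtgcggggagccggaaatggttgtgga
EIF4G1 start 2, chr3:184315149-184315178, plus strand: CCTCCgggccgaCCCTCacttgcctgaaac
EIF4G1 start 3, chr3:184320248-184320277, plus strand: acctactggatctgggccctgCCCCCagag

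The KHDRBS1 run was 9 bases long and spanned the annotated start, from position -4 to 5 where 1 is the first transcribed base. MKNK1 had a run of 6 bases on each side of the start (-10 to -5 and 10 to 15), and the run of EIF4E lay before it (-15 to -10). That of EIF4E2 lay just after start 1 (2 to 7). EIF4G1 had none at start 1, runs of 5 bases before and across start 2 (-15 to -11 and -3 to 2), and one after start 3 (7 to 11). Of the 8 starts, 6 held at least 1 such run, as did 39.0% of all 35116 windows of that length in the RefSeq table. Both figures take a run anywhere in the window, so they do not count mRNAs that begin with one. Of the runs shown, only that of KHDRBS1 has a C at position 1 followed by 4 further C or T bases. A match of these letters is a description and was not tested against the array values.

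The deposited log2 values ran from 2.16 to 19.56 across the series, and 406 of 65528 probe sets exceeded 16, so the scale is not plain log2 intensity and a fold here is a fold on that scale. ATO total RNA is called polysomal in its source name and total in its title, and its title was used. Across the 7 genes it differed from untreated total RNA by 0.03 to 0.08 (median 0.06), from untreated polysomal RNA by 0.10 to 0.81 (median 0.45) and from ATO polysomal RNA by 0.28 to 0.66 (median 0.53). Of the glial and glioma markers 6 of 7 measured passed the filter, EGFR, NES, SOX2, PDGFRA, FABP7 and PTN. None of 5 blood, 4 epithelial and 3 endothelial markers did, and of 4 neuron markers GAD1 alone did. The highest values of the blood, epithelial and endothelial markers in any sample were 5.62, 4.44 and 4.51.

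**Figure D1:**
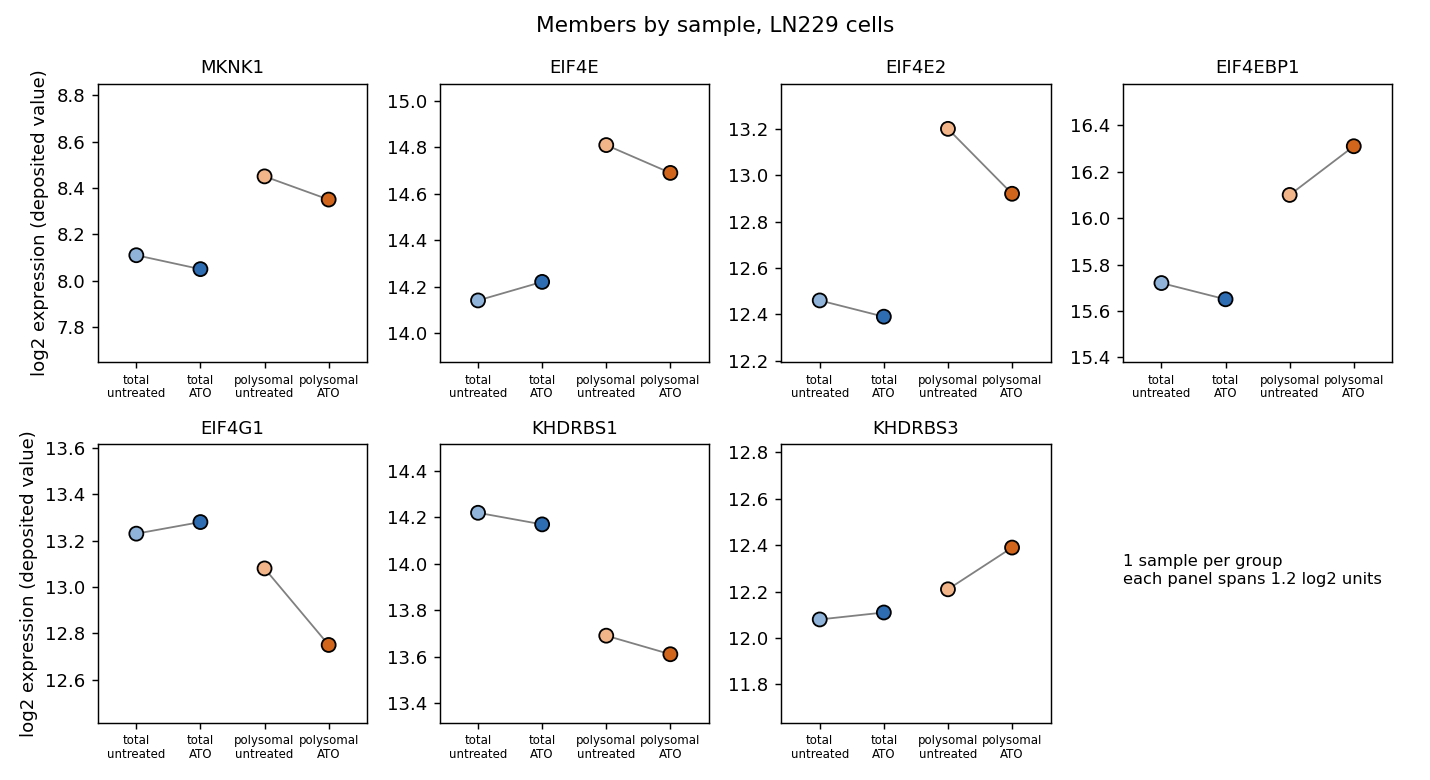
Deposited log2 expression of the 7 measured genes in each of the 4 samples, 1 point per sample, in panels that each span the same number of log2 units. In every panel the total RNA values lie within 0.08 of each other; polysomal values lie above both total values for MKNK1, EIF4E, EIF4E2, EIF4EBP1 and KHDRBS3, and below both for EIF4G1 and KHDRBS1.

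The cap-binding proteins and MNK1 are given first. EIF4E, the cap-binding subunit itself, was 14.14 in untreated total, 14.22 in ATO total, 14.81 in untreated polysomal and 14.69 in ATO polysomal RNA. Both polysomal values were above both total values. EIF4E2, which encodes the cap-binding homologue 4EHP that competes with eIF4E and represses translation, had log2 values of 12.46 and 12.39 in untreated and ATO total RNA. Its polysomal values were 13.20 untreated and 12.92 with ATO, again above both total values. Several EIF4E pseudogenes are on the array: EIF4EP3 passed the filter level with values of 7.80 to 8.24, and EIF4EP4 and EIF4EP5 did not. Whether they share probes with EIF4E was not tested.

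EIF4EBP1, whose product is the inhibitor of eIF4E, stood at 15.72 in untreated and 15.65 in ATO total RNA, and at 16.10 and 16.31 in polysomal RNA. Among the cap-complex genes with a value, it was the 1 whose polysomal level was higher with ATO than without. EIF4G1, the scaffold on which eIF4E and MNK1 meet, was 13.23 in untreated total, 13.28 in ATO total, 13.08 in untreated polysomal and 12.75 in ATO polysomal RNA. The ATO polysomal value stood apart below the other 3. MKNK1 had 8.11 and 8.05 in total and 8.45 and 8.35 in polysomal RNA from untreated and ATO cells. Of the 7 genes it lay nearest to the filter level of 7.80, with both polysomal values above both total values. The antisense transcript MKNK1-AS1 was at 3.50 to 3.73, below the filter level in every sample.

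KHDRBS1, which encodes Sam68, was 14.22 in untreated and 14.17 in ATO total RNA, and 13.69 and 13.61 in polysomal RNA. Both polysomal values were below both total values, the opposite order to EIF4E. KHDRBS3, its paralog and a splicing regulator also called SLM2, was 12.08 and 12.11 in total and 12.21 and 12.39 in polysomal RNA of untreated and ATO cells, a range of 0.31 over the 4 samples. A second KHDRBS3 probe set lay below the filter level, with a mean of 6.99. KHDRBS2, the remaining Sam68 paralog, also lay below it, at 4.01 to 4.33.

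Polysomal RNA was compared with total RNA within each treatment state to see which of these mRNAs were richer or poorer on polysomes, and a gene was counted when it passed 1.5-fold, as in the series' design text. EIF4E2 and EIF4E passed 1.5-fold upwards in untreated cells and EIF4EBP1 in ATO cells. In each state 5 of 7 members stood above 0, and KHDRBS1 stood lowest. In untreated cells EIF4E2 was 1.67-fold (log2 difference 0.74) and EIF4E 1.59-fold (0.67) higher in polysomal RNA. They were 2 of 7 genes past the threshold, where 16.2% of all 3874 genes passed it upwards. In ATO cells EIF4EBP1 was 1.58-fold higher (0.66) and was 1 of 7, where 14.7% of all genes passed. EIF4E and EIF4E2 did not pass there, at 0.47 and 0.53, and EIF4EBP1 did not pass in untreated cells, at 0.38.

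No member passed 1.5-fold downwards in either state, where 4.72% of all genes did in untreated and 3.92% in ATO cells. KHDRBS1 was closest, at -0.53 without ATO (1.44-fold lower) and -0.56 with it (1.47-fold lower). In those states 5.81% and 4.39% of all genes had a lower difference. EIF4G1 was at -0.15 in untreated and -0.53 in ATO cells, with 21.9% and 5.24% of all genes below it. MKNK1 (0.34 and 0.30) and KHDRBS3 (0.13 and 0.28) lay inside the middle part of all genes, whose quartiles were -0.10 and 0.46 without ATO and -0.09 and 0.44 with it.

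All 3874 genes together had a median above 0, 0.19 without ATO and 0.17 with it, and which members passed depended on that shift. The median of the 7 members was 0.34 and 0.30, with 5 of 7 above 0 in each state, where 66.3% and 67.0% of all genes were. Relative to the all-gene median, KHDRBS1 stood at -0.72 and -0.73, EIF4E at 0.48 and 0.30, EIF4E2 at 0.55 and 0.36, EIF4EBP1 at 0.19 and 0.49, and EIF4G1 at -0.34 and -0.70. With each sample centred on its coding-gene median, no member passed 1.5-fold upwards, KHDRBS1 passed downwards in both states and EIF4G1 did in ATO cells. That centring turned the split of all genes from 627 higher and 183 lower to 244 higher and 383 lower in untreated cells. In ATO cells it went from 569 and 152 to 242 and 314. KHDRBS3 in untreated cells changed sign with that centring (-0.055) and after subtraction of a trend on mean level (-0.074).

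**Figure D2:**
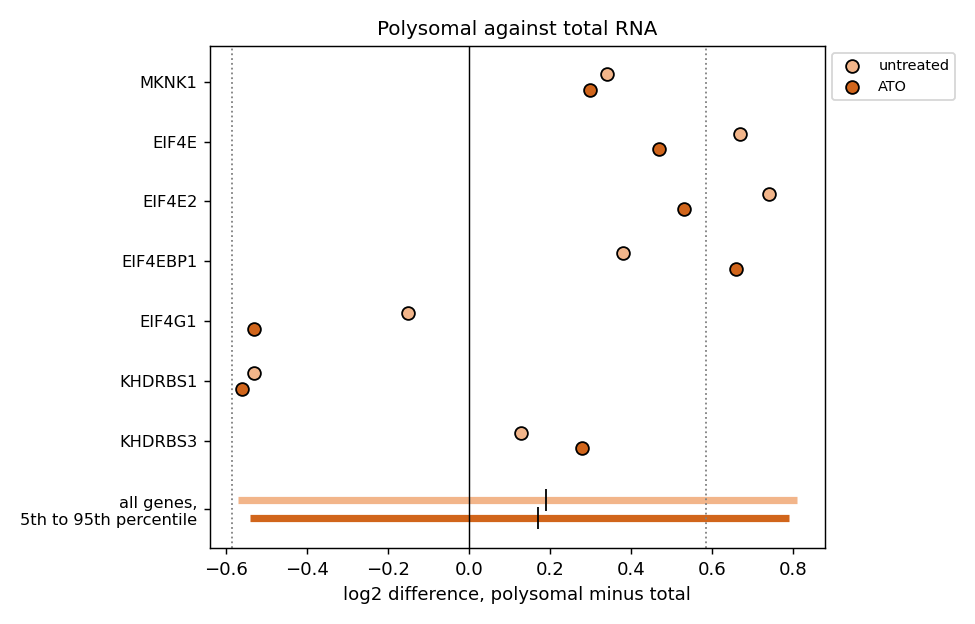
Log2 difference of polysomal minus total RNA for each gene in untreated and ATO cells, 1 sample per group, with dotted lines at 1.5-fold; the bars at the foot span the 5th to 95th percentile of 3874 coding genes and their ticks mark the median. EIF4E2 and EIF4E (untreated) and EIF4EBP1 (ATO) lie beyond the upper line, no point lies beyond the lower line, and KHDRBS1 at -0.53 and -0.56 and EIF4G1 at -0.53 with ATO lie closest to it.

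ATO was then compared with no treatment, in total RNA for abundance and in polysomal RNA. In total RNA the 7 genes were nearly level: their differences ran from -0.07 to 0.08, with a median of -0.05 where that of all genes was -0.02. EIF4E was highest, at 0.08 (1.06-fold), and EIF4E2 and EIF4EBP1 were lowest, at -0.07 each (1.05-fold). MKNK1 was at -0.06, KHDRBS1 at -0.05, KHDRBS3 at 0.03 and EIF4G1 at 0.05. No member passed 1.5-fold, where 0.103% of all genes passed upwards and 0.361% downwards. Of all genes, 63.0% had a difference of at least the size of that of EIF4E. KHDRBS3 changed sign (-0.055) when its probe sets were averaged.

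In polysomal RNA the members spread more widely with ATO, from -0.33 to 0.21, and again none passed 1.5-fold, where 0.258% of all genes passed upwards and 0.878% downwards. EIF4G1 was lowest, at -0.33 (1.26-fold lower), with 7.15% of all genes below it, followed by EIF4E2 at -0.28 (1.21-fold lower), with 10.6% below it. EIF4E was at -0.12, MKNK1 at -0.10 and KHDRBS1 at -0.08. The genes above 0 were EIF4EBP1 at 0.21 (1.16-fold) and KHDRBS3 at 0.18 (1.13-fold). With its probe sets averaged KHDRBS3 was at 0.24, above EIF4EBP1. For scale, the quartiles of all genes in this comparison were -0.15 and 0.12, and 12.3% of all genes differed by at least as much as EIF4G1.

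**Figure D3:**
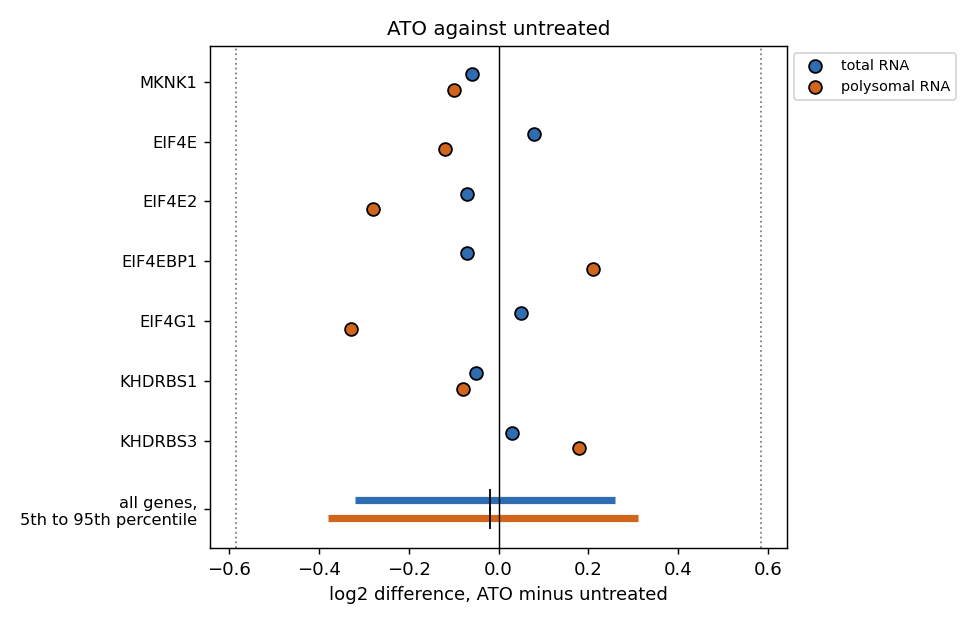
Log2 difference of ATO minus untreated cells for each gene in total and in polysomal RNA, 1 sample per group, with dotted lines at 1.5-fold; the bars at the foot span the 5th to 95th percentile of 3874 coding genes. All 14 points lie within the 1.5-fold lines and within the bar of their fraction, total RNA points lie between -0.07 and 0.08, and EIF4G1 (-0.33) and EIF4EBP1 (0.21) mark the ends of the polysomal points.

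The series' own comparison set polysomal enrichment in ATO cells beside that in untreated cells, and the change of the polysomal/total ratio expresses it per gene from all 4 samples. No member changed by 1.5-fold, where 1.60% of all genes did upwards and 2.01% downwards. EIF4G1 had the lowest value, -0.38 (1.30-fold lower), and 7.61% of all genes lay below it. EIF4EBP1 had the highest, 0.28 (1.21-fold higher), with 85.7% of all genes below it. KHDRBS3 was at 0.15, but at 0.295, above EIF4EBP1, when its probe sets were averaged. EIF4E2 (-0.21) and EIF4E (-0.20) were close to each other, and MKNK1 (-0.04) and KHDRBS1 (-0.03) were near 0. EIF4E and EIF4E2 were past 1.5-fold on polysomes in untreated cells alone and EIF4EBP1 in ATO cells alone, and for each of them the change of the ratio itself stayed under 1.5-fold.

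Among the members, EIF4E and EIF4E2 had the most similar values over the 4 samples. After each gene was centred on its own mean, their root mean square difference was 0.0841 log2 units, against 0.560 between EIF4E and KHDRBS1 and 0.140 between KHDRBS1 and EIF4G1. Outside the set, the genes nearest to KHDRBS1 were ECM1 and PSMD1 (0.0109 each), and those nearest to EIF4E were SLC35A5 (0.0130) and RPE (0.0150). MKNK1 was nearest to RAB1A (0.00707) and CYP2U1 (0.00829), KHDRBS3 to SDCBP (0.0109) and CYP51A1 (0.0112), and EIF4E2 to HMGN3 (0.0141) and TTYH3 (0.0179). EIF4EBP1 was nearest to METAP1D and TMCO1 (0.0150 each) and EIF4G1 to PDK4 (0.0259) and TRIP12 (0.0350). With 4 samples such closeness is common, that of EIF4E and EIF4E2 included. Of the other genes, 435 lay within 0.1 of EIF4E and 307 within 0.1 of EIF4E2. For MKNK1, KHDRBS1 and EIF4G1 there were 700, 142 and 100.

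Partners of the cap complex were read from a list of 29 initiation, poly(A)-binding and cap-associated genes, of which 15 were measured and 11 passed the filter. PABPC4, a cytoplasmic poly(A)-binding protein, was lowest on polysomes (-1.19 untreated, -1.18 ATO), followed by the eIF3 subunit EIF3H (-0.76, -0.68). PAIP2, which binds poly(A)-binding protein and represses translation, was highest (0.72, 0.64), and PAIP1, which binds it and promotes translation, came next (0.49, 0.55). In each state 1 of 11 passed 1.5-fold upwards and 2 downwards, and the list median was -0.04 untreated and -0.05 with ATO. Of all genes, 16.2% passed upwards and 4.72% downwards untreated, and 14.7% and 3.92% with ATO. The all-gene medians were 0.19 and 0.17. No gene of the list passed 1.5-fold with ATO in either fraction.

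The MAP kinase list, covering the signalling above MNK1, had 29 genes, 10 measured and 9 past the filter. By the mean of both states, MAP3K7, the kinase TAK1, stood highest (0.54 untreated, 0.48 ATO), with the RAS exchange factor SOS1 next (0.03, 0.02). DUSP1, the phosphatase that switches off p38 and JNK, was lowest (-0.64, -0.37), followed by the JNK-pathway kinase MAP3K1 (-0.03, -0.42). None passed upwards in either state (16.2% and 14.7% of all genes). Downwards 1 passed without ATO and 0 with it (4.72% and 3.92%). List medians were -0.09 and 0.01, beside all-gene medians of 0.19 and 0.17. With ATO none of the 9 passed 1.5-fold in total or in polysomal RNA.

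The mTOR list, covering control of 4E-BP1, had 25 genes, 11 measured and 9 past the filter. By the mean of both states, RRAGC, a RAG GTPase that brings mTOR to the lysosome, stood highest (0.75 untreated, 0.76 ATO) and the mTOR activator RHEB next (0.35, 0.37). The MTOR transcript itself (-0.57, -0.17) and the PI3-kinase regulatory subunit PIK3R1 (-0.51, -0.04) were lowest by that mean. In each state 1 of 9 passed upwards (16.2% and 14.7% of all genes) and none downwards (4.72% and 3.92%). The median was 0.05 in both, beside all-gene medians of 0.19 and 0.17. None of the 9 passed 1.5-fold with ATO in either fraction. DEPTOR, which encodes an mTOR inhibitor, and SESN1 lay below the filter level and were not counted. DEPTOR was 6.24 in untreated and 6.83 in ATO polysomal RNA, a difference of 0.59. SESN1 was 6.20 in untreated and 6.74 in ATO total RNA, a difference of 0.54.

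Transcripts known to depend on eIF4E activity were read from 20 genes, 8 measured and 7 past the filter. The cyclin gene CCND3 was 12.55 in untreated and 11.90 in ATO polysomal RNA, which is -0.65, and 11.90 and 11.69 in total RNA, which is -0.21. Among genes of the 5 lists that passed the filter (11, 9, 9, 7 and 10), it was the 1 past 1.5-fold with ATO. CCND3 passed on the lower side in polysomal RNA, where 0.878% of all 3874 genes did. The list as a whole did not go with it: 5 of its 7 genes were above 0 in that comparison, where 45.6% of all genes were. The list median there was 0.09, beside an all-gene median of -0.02, and MCL1 was highest, at 0.40. Polysomal minus total was 0.65 for CCND3 in untreated and 0.21 in ATO cells. FGF2, a growth factor, was high in both states (0.54, 0.66), and the transcription factor MYC (-0.76, -0.68) and the ribonucleotide reductase subunit RRM2 (-0.43, -0.38) were low. In each state 1 of 7 passed upwards (16.2% and 14.7% of all genes) and 1 downwards (4.72% and 3.92%). Medians were -0.28 untreated and 0.07 with ATO, beside all-gene medians of 0.19 and 0.17.

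The list of STAR proteins and Sam68 partners or targets had 21 genes, 12 measured and 10 past the filter. NCBP2, the nuclear cap-binding subunit, was highest (0.72 untreated, 0.55 ATO), and SMN1 followed (0.46, 0.24), although its near-identical copy SMN2 may share its probes. HNRNPA2B1, an hnRNP protein, was at -0.33 and -0.36, and YTHDC1, a nuclear reader of methylated adenosine that binds Sam68, at -0.48 and -0.20. In untreated cells 1 of 10 passed upwards and in ATO cells 0 (16.2% and 14.7% of all genes). None passed downwards (4.72% and 3.92% of all genes). The medians were 0.14 and 0.06, beside all-gene medians of 0.19 and 0.17, and no gene passed 1.5-fold with ATO in either fraction.

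**Figure D4:**
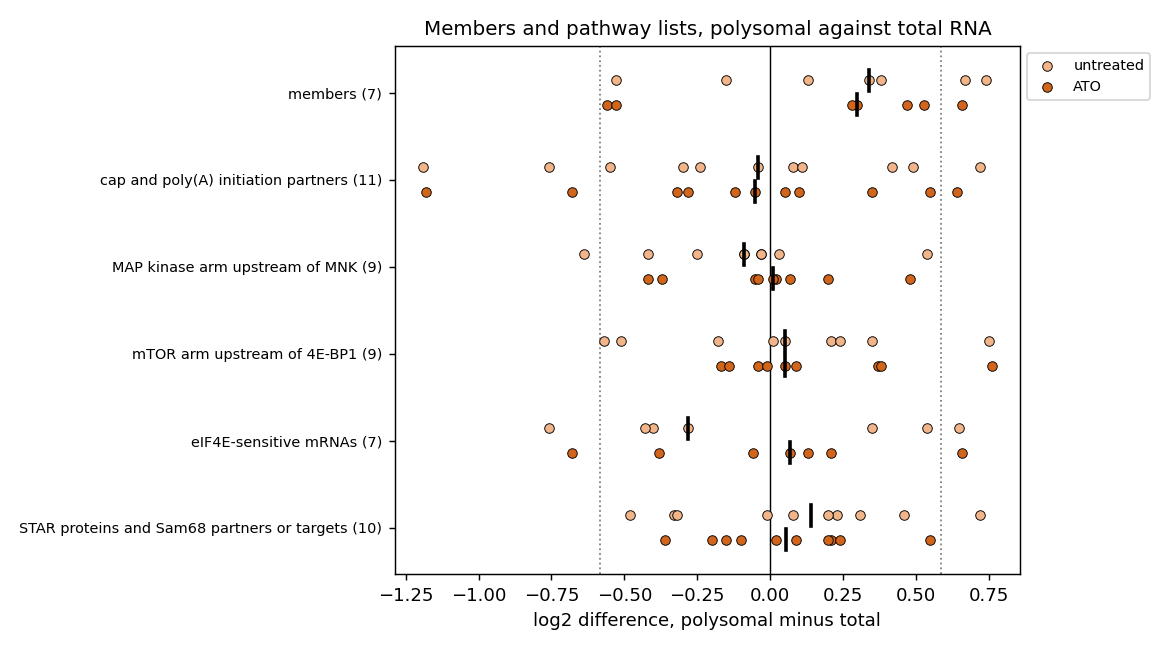
Log2 difference of polysomal minus total RNA for the 7 members and for the genes of 5 pathway lists that passed the filter (number in brackets), in untreated and ATO cells, 1 sample per group; black ticks mark list medians and dotted lines 1.5-fold. The members' medians are 0.34 and 0.30, beside all-gene medians of 0.19 and 0.17, and PABPC4 at -1.19 and -1.18 lies farthest from 0.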

How the data were processed

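Total and polysomal RNA of untreated and ATO-treated LN229 cells were measured on arrays, 1 sample per group. The authors deposited log2 values with 2 decimals, which were used unchanged. The software named in the submitters' processing notes is Affymetrix Expression Console, and per the series' design text technical triplicates were pooled. Its version, the genome build, the summary method and the normalization: not given in the sources used here. Precision is limited by the number of arrays.

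Gene symbols came from the platform annotation (16127 with 1 symbol, 419 with several, 48982 with none in the table used). Coding genes were matched by Entrez identifier to RefSeq (GRCh38.p14): 7936 probe sets of 7745 genes, of which 3874 passed the filter. Differences were formed in Python 3.11.15 with pandas 2.3.3 and, for the trend, statsmodels 0.14.6. No test was run. Members and lists were chosen with earlier results of these data known. Named list genes were the 2 highest and 2 lowest by mean polysomal-minus-total difference, plus any past 1.5-fold with ATO; for each member, the 2 nearest genes were named. The differences were checked on simulated data. Alternatives were sample centring (on all probe sets or on coding genes), quantile normalization, trend subtraction (span 0.3), dropping the filter or raising it to the 75th percentile, an offset of 32, a 2-fold and a lower fold threshold (log2 difference 0.322), and the mean over probe sets.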

Additional observations from a re-analysis of the deposited data

How the results depend on the processing

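Counts of members past the threshold changed in the polysomal against total comparison and at the lower threshold. Centred on coding genes, 0 members were past it upwards and 1 downwards without ATO (6.30% and 9.89% of all genes; member median 0.155), and 0 and 2 with ATO (6.25% and 8.11%; 0.130). After trend subtraction the member counts were again 0 and 1, and 0 and 2, with medians of 0.192 and 0.176, beside 6.45% and 9.29%, and 5.76% and 8.26%, of all genes. Quantile normalization gave 1 lower without ATO and 2 lower with it (5.63% and 4.98% of all genes). At 2-fold 0 were higher in either state (1.65% and 1.37% of all genes). At a log2 difference of 0.322, 4 were higher and 1 lower without ATO (36.6% and 13% of all genes) and 3 and 2 with it (35.6% and 11.7%). At that threshold 1 member, EIF4G1, was lower with ATO in polysomal RNA (7.9% of all genes) and in the ratio (10.6%). The cause of these changes was not tested, beyond the shift of the all-gene median and the thresholds themselves. Of 350 values of single genes under the 10 alternatives, 323 kept their side of the threshold, 18 moved past it and 9 moved within it. Under the 2-fold and the lower threshold the values themselves were unchanged. Moves counted there came from the threshold alone. No value past the threshold changed sign. Dropping or raising the filter could not change a single-gene value, and averaging probe sets could change KHDRBS3 alone. All values under these alternatives are among the 323, most of them fixed in advance. The filter at the 75th percentile leaves out MKNK1, whose values are still among the 350. No paired analysis was possible because each group holds 1 sample. With 1 pooled sample per group, differences of the size seen with ATO cannot be set against replicate error.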
